A study of Gasterosteus aculeatus with 36 samples.

Results

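The 4 genes described here are the myogenic regulatory factors *myf5*, *myod1*, *myog* and *myf6*, followed through the development of whole threespine sticklebacks of both sexes. They were chosen by symbol, and all 4 listed symbols were among the 24388 genes of the deposited normalized table. RNA-seq had been made from 36 fish in 12 groups of 3, which were females and males at embryonic stages 17 (early somitogenesis), 20 (onset of pigmentation) and 23 (yolk sac circulation complete) and at 0, 4 and 8 days post hatching (dph). The study's fish were laboratory-reared offspring of wild-caught parents from Port Gardner Bay in Washington and from Akkeshi in Japan. The sex of each library was taken from its label. The labels gave no mutation, transgene or treatment for any group. Neither population, clutch nor parents were given for single fish, so p-values measure only the spread between these fish. Each library came from a whole animal, in which fewer muscle precursors and less RNA per precursor cannot be told apart.

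The myogenic regulatory factors are basic helix-loop-helix transcription factors that pair with E proteins and bind E-box sites in the regulatory regions of muscle genes. In vertebrates Myf5 and MyoD commit cells of the somite to the muscle lineage, myogenin drives committed myoblasts to differentiate into muscle fibres, and Myf6 (also called MRF4) acts mainly in differentiating and maturing fibres. After hatching, the same factors are used by the precursor cells that add fibres to the growing trunk muscle of fish.

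In the gene table of the stickleback assembly fGasAcu3.hap1.1, which is not the assembly the reads were counted on, *myf5* (gene ID 120817872) and *myf6* (120818528) are direct neighbours on chromosome 4, between *lin7a* and *rps16*. *myog* (120835219) lies on chromosome 17 beside *mdm4*, and *myod1* (120809765) lies on the X chromosome. Females of this species are XX and males XY, so *myod1* is the sex-linked member of the group.

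Counted reads per fish ranged from 8637205 to 52089185 with a median of 23246848. The members rested on few of them: 37 to 291 reads per fish for *myf5*, 49 to 583 for *myod1*, 87 to 4823 for *myog* and 19 to 413 for *myf6*, and no fish had 0 reads of any member. Levels are given as normalized read counts, which are reads divided by a size factor for each fish and are not corrected for gene length. They are therefore compared between fish and stages. Where counts of different genes are summed or set side by side, gene length is part of their size. Of 24 checks of a member within the 6 fish of a stage, no fish stood apart by Dixon's criterion. Changes are log2 fold changes with their standard error (SE), and a gene was called at a Benjamini-Hochberg adjusted p under 0.05 over the 22168 genes tested with edgeR.

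*myf5*, a lineage-committing factor, was highest in the youngest embryos and had dropped to a low plateau by stage 23. At stage 17 the females had 157, 221 and 242 normalized counts and the males 222, 295 and 195. At stage 20 the females had 137, 199 and 115 and the males 200, 262 and 75.1, a spread of 41.3% of the mean across the 6 fish that was the widest of any stage for this gene. The change from stage 17 to stage 20 was -0.42 (SE 0.23, adjusted p = 0.109), and the ranges of the 2 stages overlapped widely.

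From stage 20 to stage 23 *myf5* fell by 1.32 on the log2 scale (SE 0.24, adjusted p = 1.75e-05). Its median dropped from 168 to 64.9 normalized counts, and 5 of the 6 fish of stage 20 were above the highest fish of stage 23, at 86.6. The medians of the hatched larvae were 76.3 (46.9 to 96.8) at 0 dph, 79.0 (43.1 to 105) at 4 dph and 61.4 (41.4 to 81.6) at 8 dph. The 3 later transitions gave log2 changes of 0.14 (SE 0.24), -0.06 (SE 0.24) and -0.27 (SE 0.25), none of them called, with 95% intervals that together ran from -0.77 to 0.63. The stage 17 median was 3.61 times that of 8 dph.

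*myod1*, the other committing factor, rose, fell and rose again. Its median was 163 normalized counts at stage 17 (73.7 to 295), 349 at stage 20 (243 to 499), 214 at stage 23 (120 to 261) and 111 at 0 dph (65.0 to 144). It stayed at 129 at 4 dph (111 to 145) and reached 309 at 8 dph (161 to 410). Females and males of a stage differed for this gene, as described further on, so part of each of these ranges is the gap between the sexes.

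Between stages 17 and 20 *myod1* rose by 0.96 (SE 0.17, adjusted p = 9.74e-06), or 1.94-fold. It then fell by 0.76 to stage 23 (SE 0.16, adjusted p = 0.000168) and by 0.97 to hatching (SE 0.17, adjusted p = 1.06e-05). The change from 0 to 4 dph was 0.24 (SE 0.17, adjusted p = 0.256). Between 4 and 8 dph it rose by 1.11 (SE 0.17, adjusted p = 2.25e-05), or 2.16-fold, and every fish of 8 dph, the lowest at 161, was above every fish of 4 dph, the highest at 145. The rise was 1.47 in females and 0.76 in males, and the male value alone missed the threshold (adjusted p = 0.0514). Whether those 2 rises differ was tested only as part of the course over all stages.

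**Figure D1:**
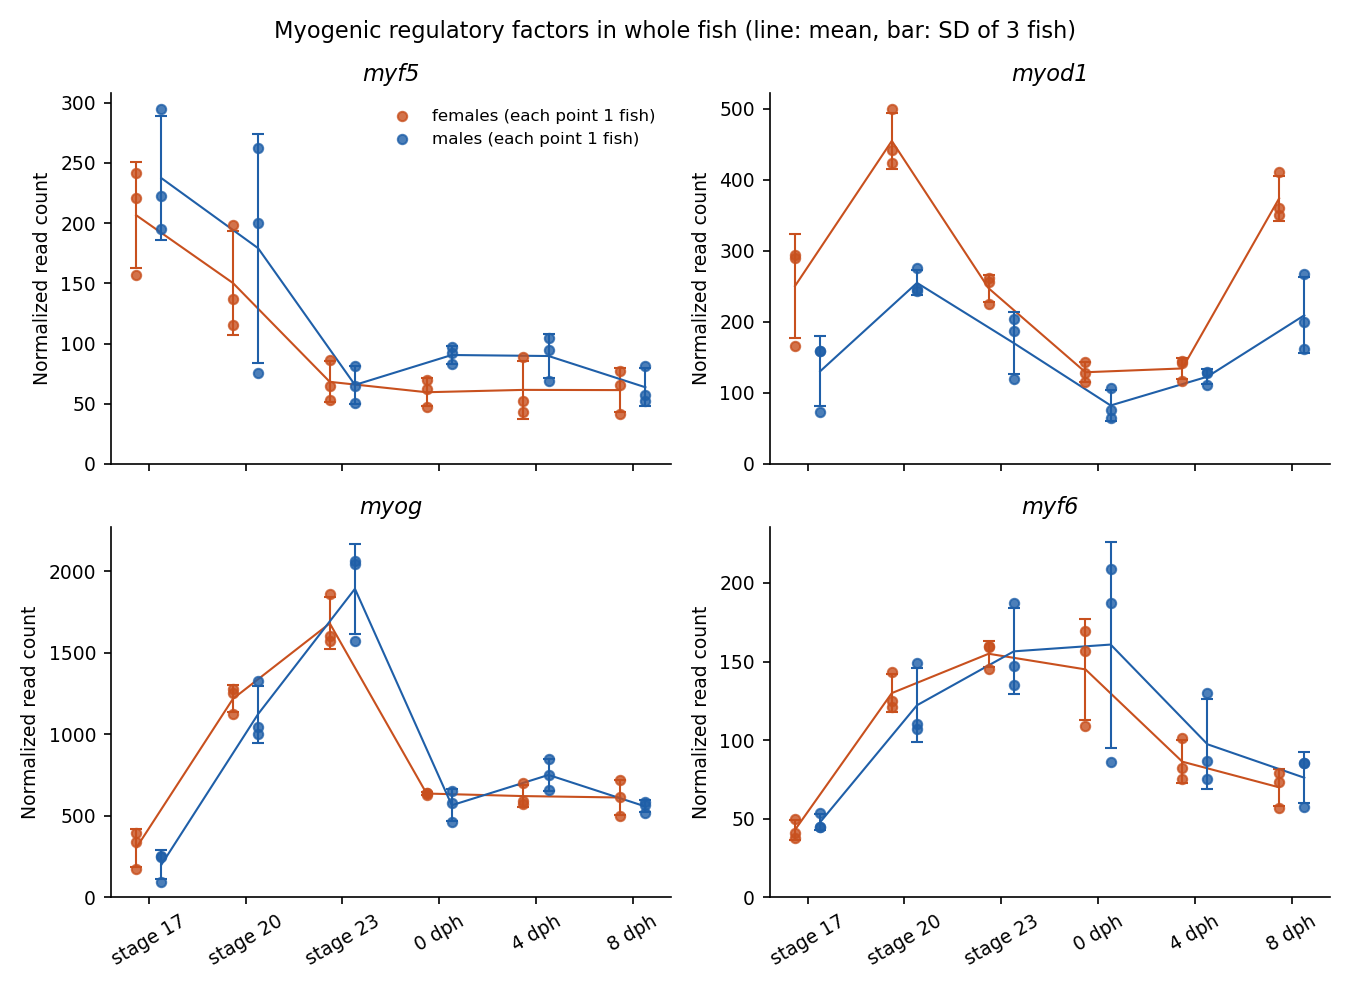
Normalized read count (linear axis) of each myogenic regulatory factor by stage, with 1 point per fish, females in orange and males in blue, lines through the group means and bars for the SD of 3 fish. *myf5* is highest at stage 17, *myod1* peaks at stage 20 and again at 8 dph with females above males, *myog* peaks at stage 23 and *myf6* is highest from stage 20 to 0 dph.

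*myog*, which drives myoblasts into differentiation, had the widest course of the 4 genes, with a stage 23 median 6.94 times that of stage 17. At stage 17 the females had 337, 173 and 393 normalized counts and the males 95.2, 253 and 246. At stage 20 they had 1253, 1122 and 1276 against 1000.2, 1047 and 1323, and at stage 23 1862, 1604 and 1573 against 2061, 1571 and 2042. The fish of these 3 stages fell in 3 separate ranges. The lowest *myog* value, in stage 17 male replicate 1, belonged to the fish that also had the lowest *myod1* of its stage (73.7).

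*myog* rose by 2.31 from stage 17 to stage 20 (SE 0.17, adjusted p = 5.05e-13), or 4.95-fold, and by a further 0.58 to stage 23 (SE 0.16, adjusted p = 0.00207). The smaller rise was 0.44 in females alone, where it was not called (adjusted p = 0.104). By hatching *myog* had fallen by 1.56 (SE 0.16, adjusted p = 1.34e-09), and all 6 fish of 0 dph, at 460 to 654, were below the lowest of stage 20. The larval medians of 633, 677 (571 to 847) and 577 (500 to 717) normalized counts overlapped in range. Their changes were 0.11 (SE 0.16) and -0.23 (SE 0.16), with adjusted p of 0.580 and 0.337.

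*myf6*, the factor of differentiating fibres, rose early and stayed up until hatching. At stage 17 the 6 fish lay between 37.6 and 53.8 normalized counts (median 44.7), the tightest stage 17 group of the 4 genes with a spread of 12.9% of the mean. The medians were then 123 (107 to 149) at stage 20, 153 (135 to 187) at stage 23 and 163 (86.2 to 209) at 0 dph. The rise from stage 17 to stage 20 was 1.51 (SE 0.19, adjusted p = 5.29e-08), or 2.85-fold, with no overlap of the 2 stages.

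Neither of the next steps of *myf6* was called. The change was 0.27 (SE 0.17, adjusted p = 0.181) to stage 23 and -0.01 (SE 0.17, 95% interval -0.36 to 0.34) to hatching, the step over which *myog* fell by 1.56. From 0 to 4 dph *myf6* fell by 0.82 (SE 0.18, adjusted p = 0.000377). At 4 dph the females had 75.0, 102 and 82.2 normalized counts, and the range of all 6 fish (75.0 to 130) still met that of 0 dph. The value at 8 dph was 76.4 (57.0 to 85.4), a change of -0.35 (SE 0.18, not called), and remained above stage 17 without overlap.

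Read by transition, 3 of the 4 members rose from stage 17 to stage 20, a step at which 34.3% of all tested genes rose and 30.1% fell. From stage 20 to stage 23, 1 member rose and 2 fell, against 30.2% and 28.1% of all genes. From stage 23 to hatching 2 members fell, where 24.7% of all genes fell and 33.7% rose. From 0 to 4 dph 1 member fell, against 24.4% of genes lower and 24% higher. From 4 to 8 dph 1 member rose, against 8.44% of genes higher and 9.47% lower. Counts over 4 genes are too few to be set apart from these shares. The direction not named was called by edgeR in 0 members at 4 of these steps, also at an unadjusted p under 0.05 and with DESeq2. Consecutive transitions share a stage, so their values are not independent.

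**Figure D2:**
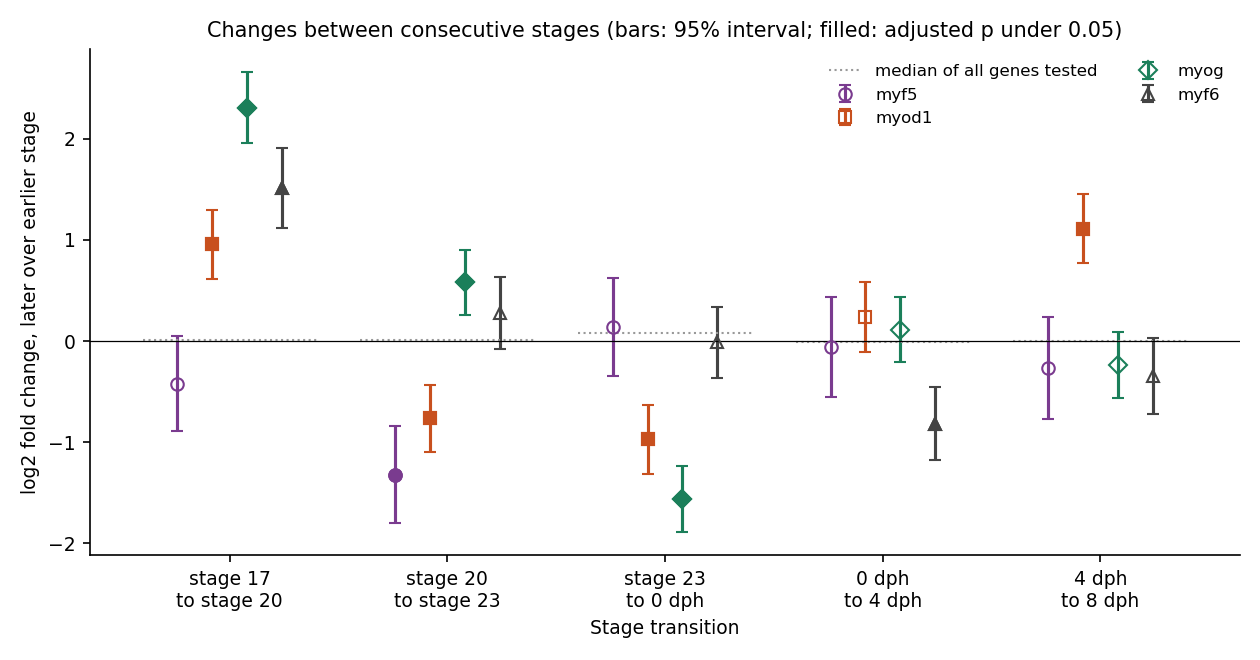
Log2 fold change, later over earlier stage, of each member at the 5 transitions, both sexes averaged, with 95% intervals and filled symbols for an adjusted p under 0.05. *myog* has the highest rise (2.31, stage 17 to stage 20) and the deepest fall (-1.56, stage 23 to hatching), and from 4 to 8 dph *myod1* (1.11) is the member called.

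In the order of the 6 stages, most neighbours were not separated. For *myf5* (stage 17, 20, 4 dph, 0 dph, 23, 8 dph, from high to low) and for *myod1* (stage 20, 8 dph, 23, 17, 4 dph, 0 dph), the ranges of every pair of neighbours overlapped. For *myog* stage 23 lay above stage 20, stage 20 above 4 dph and 8 dph above stage 17, while the 3 larval stages overlapped. For *myf6* the neighbours with separate ranges were 8 dph and stage 17, its lowest.

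Ratios within a fish cancel its size factor, and their change over stages shows how the balance between members moved. Their absolute size also reflects gene length and is not read here. The ratio of *myog* to *myod1* had medians of 1.32, 3.31, 8.35, 5.78, 5.08 and 2.06 over the 6 stages, a climb to stage 23 and a return by 8 dph. The lowest ratio at stage 23 (6.15) was above the highest at stage 20 (5.45). The ratio of *myf6* to its chromosomal neighbour *myf5* went from 0.204 at stage 17 to 2.67 at stage 23 and back to 1.16 at 8 dph, and all 6 fish of stage 17 (0.151 to 0.275) lay below all fish of every later stage (lowest 0.420). The 2 adjacent genes thus did not follow the same course: in the 36 fish their log2 levels had a Pearson r of -0.39, a description over fish that share stages.

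The balance of the committing factors also shifted. The ratio of *myod1* to *myf5* rose from a median of 0.782 at stage 17 to 2.84 at stage 20 and 3.05 at stage 23. It was 1.54 and 1.60 at 0 and 4 dph and reached 5.22 at 8 dph, where females and males together ranged from 1.98 to 8.69. *myod1* was higher in females at 8 dph, so that range includes the gap between the sexes. Between 4 and 8 dph *myod1* rose by 1.11 (SE 0.17). *myf5* changed by -0.27 (SE 0.25, 95% interval -0.77 to 0.24, not called), and a fall of *myf5* would also raise the ratio. How much each gene gave to the change was not tested.

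Females and males of 1 stage were compared to ask whether any member differed by sex. Counts of the X-linked gene *myod1* were higher in females. Reads were counted where they mapped uniquely, on a reference that includes the Y chromosome. Reads of any Y copy of the gene could therefore be missing from these counts. Whether such a copy exists was not examined, so a sex difference in total *myod1* RNA is not shown. At stage 17 the females had 295, 166 and 290 normalized counts and the males 73.7, 159 and 159, and at stage 20 the females had 441, 499 and 423 and the males 275, 247 and 243. At both stages every female was above every male, with the lowest female and the highest male of stage 17 close together. The female excess was 0.98 (SE 0.24, adjusted p = 0.00949) at stage 17 and 0.85 (SE 0.23, adjusted p = 0.0208) at stage 20.

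At stage 23 the *myod1* levels were 225, 261 and 255 normalized counts in females and 203, 187 and 120 in males. At hatching they were 115, 129 and 144 against 65.0, 75.2 and 107. Again no ranges crossed, but the differences of 0.56 (SE 0.23, adjusted p = 0.314) and 0.64 (SE 0.24, adjusted p = 0.217) were not called over all genes, by edgeR or by DESeq2. Their unadjusted p-values were 0.0198 and 0.0124 in the edgeR fit.

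At 4 dph the sexes met, with 142, 145 and 117 normalized counts of *myod1* in females and 130, 128 and 111 in males. The difference was 0.14 (SE 0.24, 95% interval -0.35 to 0.64). At 8 dph the gap was open again, with 410, 351 and 360 in females and 161, 200 and 267 in males. The excess there was 0.85 (SE 0.23, adjusted p = 0.0186), or 1.81-fold. The sexes' ranges were thus separate at 5 of the 6 stages, and 4 dph was the exception.

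The sex differences of *myod1* at single stages rested on 3 fish a side. At stage 17 the call was lost without female replicate 1 (0.85, adjusted p = 0.0744), female replicate 3 (0.86, adjusted p = 0.0710) or male replicate 1 (0.68, adjusted p = 0.165), and also when stage 17 was fitted on its own (0.98, adjusted p = 0.260). At stage 20 it was lost without female replicate 1 (adjusted p = 0.0501) or 2 (0.108) and male replicate 2 (0.0921) or 3 (0.0952). At 8 dph it was lost without female replicate 1 (adjusted p = 0.0978) and male replicate 1 (0.181) or 2 (0.0952). In all these fits of edgeR the difference kept its sign and lay between 0.68 and 0.98.

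Taken as the mean of the 6 stages, a contrast added after the values were seen, *myod1* was 0.67 higher in females on the log2 scale (SE 0.10, 95% interval 0.47 to 0.87, adjusted p = 2.15e-06), or 1.59-fold. It was called in all 40 alternative fits, including each with 1 fish left out, with adjusted p between 7.54e-10 and 6.71e-06. By this contrast 3.77% of all tested genes were called higher in females and 2.08% higher in males.

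The other 3 members were called at no stage, by edgeR or by DESeq2, and 1 of their comparisons passed an unadjusted p of 0.05. It was that of *myog* at stage 17, 0.64 higher in females (SE 0.25, unadjusted p = 0.0150, adjusted p = 0.238), in the same fish in which *myod1* differed. The difference was called without female replicate 2 (0.92, adjusted p = 0.0166) or male replicate 2 (0.99, adjusted p = 0.0343), and was 0.29 at its lowest with another fish left out. *myf5* leaned to males at 0 dph, where the males had 96.8, 91.9 and 82.8 normalized counts and the females 62.0, 69.8 and 46.9. That gap of -0.59 (SE 0.34, adjusted p = 0.867) separated the ranges but was not called. Over the mean of the 6 stages the female minus male values were -0.26 for *myf5* (95% interval -0.54 to 0.02), 0.12 for *myog* (-0.07 to 0.31) and -0.07 for *myf6* (-0.29 to 0.14).

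Of all tested genes, 2.65% were called higher in stage 17 females and 1.76% in the males. The female and male shares were 2.95% and 1.67% for stage 20 and 3.17% and 1.75% for stage 23. In larvae of 0 dph 3.01% of genes were higher in females (1.72% in males), in those of 4 dph 3.04% (1.69%), and in those of 8 dph 3.14% (1.69%). Against these shares stands 1 member of 4 at stages 17, 20 and 8 dph.

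The background of *myod1* is the X chromosome rather than the genome. Among 819 tested X-linked genes the median female excess was 0.94 to 0.97 on the log2 scale at each stage, and 57.0% to 71.3% of them were called higher in females, against 0.05% to 0.22% of 18064 autosomal genes. *myod1* had a larger excess than 57.1% of the X-linked genes at stage 17, 31.8% at stage 20 and 31.6% at 8 dph. At stage 23, 0 dph and 4 dph it stood above 9.28%, 13.6% and 5.37% of them. By the mean of the 6 stages its 0.67 lay below the X median of 0.96 and above 14.0% of X-linked genes.

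The genes around *myod1* on the X also had a female excess, which was larger than that of *myod1* at most stages. Of its 10 neighbours on each side 17 were tested, and their median female excess was 0.78, 0.97, 1.09, 0.96, 0.85 and 1.05 on the log2 scale over the 6 stages. *myod1* was at 0.98, 0.85, 0.56, 0.64, 0.14 and 0.85, below the neighbour median at every stage but stage 17. Single neighbours spread most widely at stage 17 (-2.64 to 1.43) and 4 dph (-1.75 to 2.03). The 95% interval of *myod1* included the median of all X-linked genes at each stage but 4 dph, and the interval of the mean of the 6 stages (0.47 to 0.87) ended below the X median of 0.96. No direct test of *myod1* against the rest of the X was run.

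**Figure D3:**
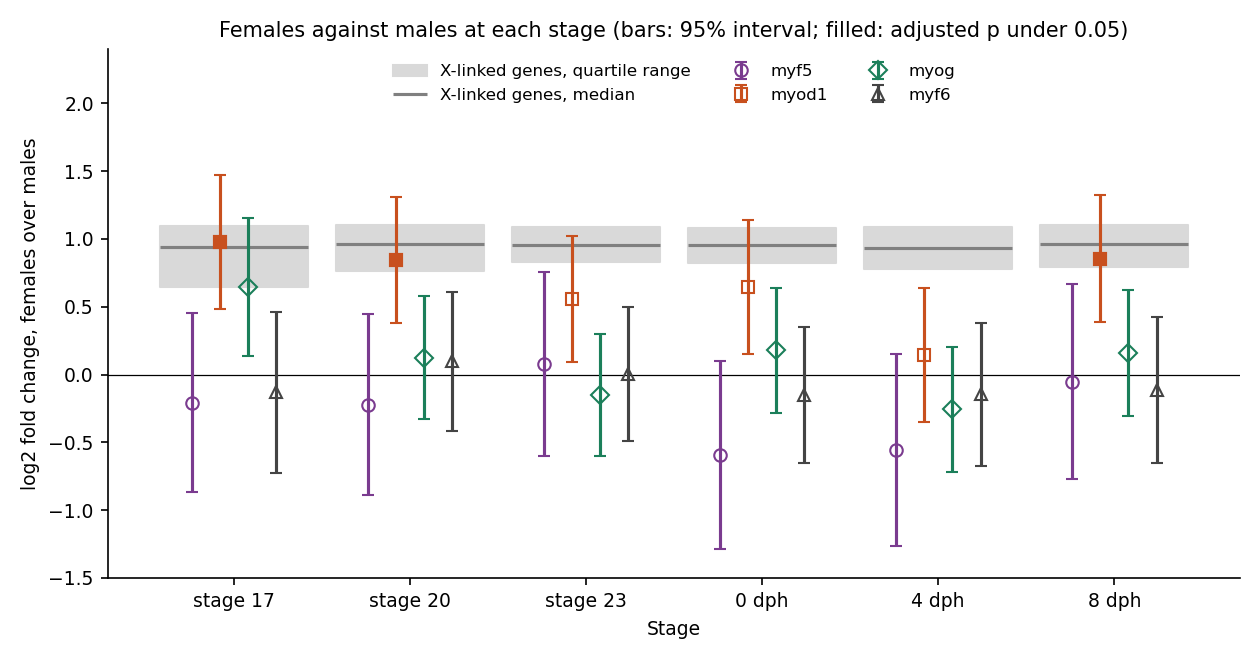
Log2 fold change, females over males, of each member at each stage with 95% intervals and filled symbols for an adjusted p under 0.05, over grey boxes for the quartile range and the median of 819 X-linked genes. *myod1* lies within the boxes at stages 17, 20 and 8 dph and below them at stage 23, 0 dph and 4 dph (0.14), while the 3 autosomal members lie between -0.59 and 0.64.

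A course over stages that differed between the sexes was not found for any member. The interaction of stage and sex in edgeR had F values of 1.57 for *myod1*, 1.75 for *myog*, 0.62 for *myf5* and 0.16 for *myf6*, each with an adjusted p of 1. No member passed an unadjusted p of 0.05 or the DESeq2 test either. Of all genes 0.0451% were called by this test, so it made few calls with 3 fish per group. The convergence of the sexes in *myod1* at 4 dph is therefore a description of 6 fish.

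The genes around the myogenic regulatory factors were described by lists of known roles. Symbols were looked up with alternative spellings, so a list held more spellings than genes. Each list is read beside all tested genes, whose median change was between -0.01 and 0.08 at every transition. Of all tested genes 34.3% were called higher and 30.1% lower from stage 17 to stage 20. The shares were 30.2% and 28.1% to stage 23 and 33.7% and 24.7% to hatching. They were 24% and 24.4% from 0 to 4 dph, and 8.44% and 9.47% from 4 to 8 dph. List counts near these shares are not read as a trait of the list.

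Of 18 upstream and progenitor genes 12 rose and 4 fell from stage 17 to stage 20, with a median of 0.51. *cdh15*, the muscle cadherin, rose by 3.55 (SE 0.14) and *lbx1a*, a homeobox gene of migrating muscle precursors, by 3.88 (SE 0.44). The *lbx1a* median went from only 1.64 to 23.5 normalized counts. Over the same step *tbx6* fell by 4.58 (SE 0.21) and *tbx16* by 4.41 (SE 0.28). Both are T-box genes of the presomitic mesoderm, and to stage 23 *tbx6* again fell by 4.04 and *tbx16* again fell by 3.31. Their medians at stage 23 were 1.15 and 2.54 normalized counts, so the size of these later falls rests on few reads. Over the steps at which *myod1* fell the list turned down too, with 3 genes higher and 8 lower at stage 23 and 2 higher and 11 lower at hatching, when *pax7a*, a gene of muscle progenitors, fell by 1.19 (SE 0.12) and *six4a* by 1.25 (SE 0.08). After hatching 5 rose and 2 fell to 4 dph (5 and 1 with DESeq2 size factors) and 3 rose and 1 fell to 8 dph. *meox2a*, a homeobox gene of the somite, was among those that rose at both steps, by 1.96 (SE 0.15) at the earlier.

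Signals that pattern the somite went down before hatching. Of 21 such genes 13 fell and 3 rose from stage 17 to stage 20, 14 fell and 2 rose to stage 23, and 15 fell and 2 rose to hatching. *mespaa* and *her7*, genes of somite segmentation, went down at the earliest step: *mespaa* fell by 3.55 (SE 0.37) and *her7* fell by 2.92 (SE 0.28). At the next step *mespaa* fell by 5.31 (SE 0.67), from a median of 6.91 normalized counts to 0, so the size of this fall rests on few reads. *dld*, a Notch ligand, rose by 0.52, then fell by 1.78 to stage 23 and fell by 1.37 to hatching. *prdm1b*, whose zebrafish relative *prdm1a* sets slow muscle fate, went against the list with a rise of 5.25 (SE 0.16). It fell by 1.28 at hatching and by 1.11 to 4 dph. From 0 to 4 dph the list had 5 genes higher and 5 lower, and from 4 to 8 dph 2 fell. These counts were near the shares of all genes.

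Cofactors were divided. Of 15 genes, 7 rose and 6 fell from stage 17 to stage 20, and 6 rose and 9 fell to stage 23. *mef2b*, of the MEF2 family that acts with the myogenic factors, rose by 3.68 (SE 0.54) and then fell by 1.54 (SE 0.38). It rested on few reads, with medians of 1.33, 15.2 and 4.59 normalized counts at stages 17, 20 and 23. From stage 20 to stage 23 the medians of its relatives with higher counts went up: *mef2aa* from 441 to 610, *mef2cb* from 1063 to 1736 and *mef2d* from 1135 to 1486. *kat2b*, an acetyltransferase known to act on MyoD in mammals, rose by 3.32 and again by 1.10. At hatching 2 rose and 9 fell. Among the latter *smarca4a* (a chromatin remodeller) fell by 0.96 and *ep300b* (an acetyltransferase) fell by 0.92. After hatching the counts were 4 higher and 2 lower, then 1 and 1, too few to be set apart from the shares of all genes. *smyd1b*, a methyltransferase needed for sarcomere assembly in zebrafish, fell by 0.67 (SE 0.14) from 0 to 4 dph and rose by 0.45 (SE 0.14) from 4 to 8 dph, the step at which *myod1* rose.

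Among inhibitors of myogenesis more genes rose than fell in the embryo, and more fell at hatching. Of 18 genes, 10 rose and 4 fell from stage 17 to stage 20, 9 rose and 5 fell to stage 23, and 1 rose and 11 fell at hatching. *mstnb*, a myostatin gene that restrains muscle growth, was the gene that rose at hatching (1.34, SE 0.18). It had risen by 2.33 and 0.98 before, and rose once more by 0.72 (SE 0.18) from 4 to 8 dph. *twist1a*, whose mammalian relative blocks MyoD, fell by 1.15 (SE 0.10) from stage 17 to stage 20 and by 0.84 (SE 0.10) from 0 to 4 dph. In the larvae 7 rose and 2 fell, then 4 rose and 3 fell, and *hdac9b*, a class of deacetylase that restrains MEF2, rose at both steps by 0.75 and 0.61.

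Genes of myoblast fusion and of the neuromuscular junction rose early, as did *myog* and markers of other cell types. From stage 17 to stage 20, 7 of 7 neuron markers (median 2.78) and 4 of 4 hepatocyte markers (median 3.28) rose. So did 2 of 3 erythroid and 1 of 2 epidermis markers. Of the 16 fusion and neuromuscular genes 12 rose over that step, with a median of 1.75. Among them *chrnb1*, a subunit of the muscle acetylcholine receptor, rose by 3.35 (SE 0.22) and *cav3*, the caveolin of muscle, by 3.30 (SE 0.17). To stage 23, 9 rose and 4 fell. At hatching 8 fell and 4 rose. *mymk* (myomaker), which fuses myoblasts, fell by 1.73 (SE 0.24) and *chrng*, the embryonic receptor subunit, by 1.60 (SE 0.37), beside the fall of *myog* by 1.56. *mymk* then rose by 0.87 (SE 0.24) and fell by 0.87 (SE 0.24) in the larvae, where the counts were 3 higher and 4 lower from 0 to 4 dph, then 3 and 2. With DESeq2 size factors in place of TMM the counts from 0 to 4 dph were 3 higher and 2 lower, so the list's larger direction there depended on the scaling.

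Genes listed as sarcomere proteins did not follow *myog* and *myod1* down at hatching. The list also holds creatine kinases (*ckma*, *ckmb*) and calcium-handling genes of muscle (*atp2a1*, *atp2a1l*, *casq1a*, *ryr1b*, *cacna1sb*). At 8 dph *ckma* (median 266923), *atp2a1l* (220448) and *ckmb* (210833) were among its genes with the highest counts, so the sums below are not of sarcomere proteins alone. Of 23 genes 22 rose from stage 17 to stage 20, 21 to stage 23, 20 to hatching, 15 to 4 dph and 8 to 8 dph, with medians of 4.72, 1.24, 1.45, 0.50 and 0.33. From 0 to 4 dph 3 fell, among them *mylpfb*, a fast myosin light chain (1.11, SE 0.18). *myom1a*, a myomesin of the M-band, rose by 7.14 (SE 0.26) and *tpm3*, a tropomyosin, by 6.38 (SE 0.26) at the earliest step. Their stage 17 medians were low, at 13.6 and 6.03 normalized counts. The summed normalized count of the list had medians of 4143, 100259, 256612, 802439, 1233950 and 1752020 over the 6 stages. It went on increasing over the step from stage 23 to hatching, at which *myog* fell to a median of 633 from 1733 normalized counts. These sums are of whole fish in which markers of other tissues also changed. The summed count of 7 of 10 listed neuron markers went from 2278 (2033 to 2499) at stage 17 to 23213 (20383 to 25377) at stage 23. It was lower at 0 dph, at 18702 (17625.5 to 20396), and was 24942 (23270.5 to 29166) at 8 dph. None of the 7 was at 0 throughout a stage. The lists of erythroid (3 of 10 symbols in the table), hepatocyte (4 of 9) and epidermis (2 of 7) markers had their highest summed medians at stage 23 (16520), 0 dph (109333) and 8 dph (8713), against 854, 36331 and 4395 at stage 17. From stage 23 to 0 dph the erythroid sum fell to 7484. Over that step the hepatocyte sum rose from 76990 to 109333, and the epidermis sum was 6158 and then 6533. The hepatocyte markers did not move together. *apoa2* had its highest median at 0 dph (74104), *tfa* at stage 20 (61623), *fabp10a* at 4 dph (11764) and *fgb* at 8 dph (8466). The part of such changes in the levels of the members was not tested.

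**Figure D4:**
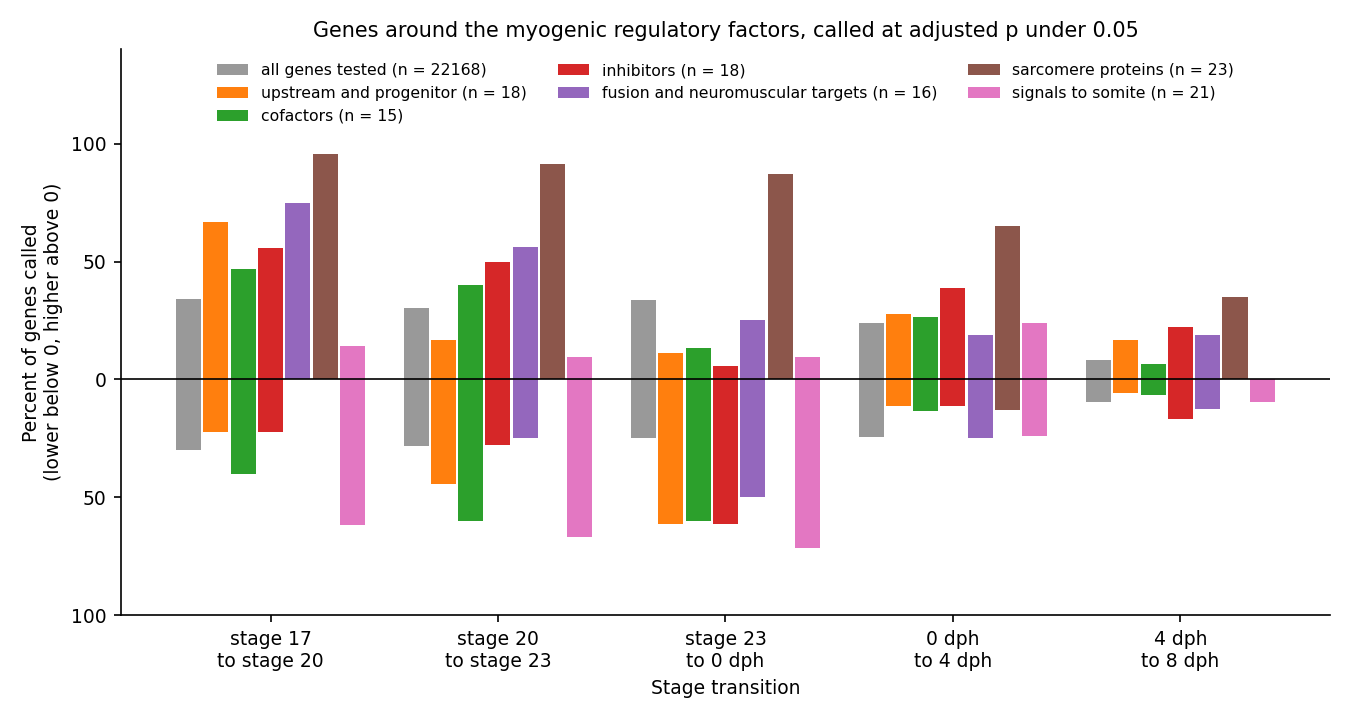
Percent of each list's genes called higher (bars above 0) and lower (bars below 0) at an adjusted p under 0.05 by transition, with all 22168 tested genes in grey. More genes of the sarcomere list, which includes creatine kinases and calcium-handling genes, rise than fall at every transition. More signals to the somite fall than rise at each of the 3 transitions up to hatching, and the other lists have more lower than higher calls at hatching.

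The genes whose course over the 36 fish was most like that of a member were looked up among 13596 tested genes with a symbol, by Pearson's r of log2(normalized count + 1). For *myf5* they were *numb* (r = 0.91), *zgc:153039* (0.91) and *paics* (0.90), all highest at stage 17. For *myod1* they were *slc38a8a* (0.79), *si:ch211-266k8.4* (0.76) and *ppm1h* (0.75), all highest at stage 20. *slc38a8a* reached a median of 147 normalized counts at stage 20, and hatchlings had 40.9.

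*myog* had the closest companions. They were *inka2* (r = 0.96), *lbx1b* (0.92) and *npas1* (0.92), and *inka2* had medians of 217, 638, 735, 448, 431 and 377 normalized counts over the stages. For *myf6* they were *zgc:110045* (0.89), *hdlbpb* (0.89) and *prdm1b* (0.88). The highest r for *myod1* was below the highest for each other member. These values are over fish that share stage and sex, and were taken as a description.

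Among the members themselves *myog* and *myf6* had the highest r over all fish (0.77) and *myf5* and *myog* the lowest (-0.45). Within groups the picture differed. After each group's mean had been taken away, *myod1* and *myog* had an r of 0.65 over 36 fish, and the other 5 pairs lay between -0.30 and 0.31. Both genes spread most at stage 17, so its fish weigh most in this r. The spread there was 29.1% (females) and 37.6% (males) of the mean for *myod1*, and 38.0% and 45.0% for *myog*. Elsewhere groups differed. Males of 0 dph ran in the same order (65.0, 75.2, 107 and 460, 577, 654), stage 20 females in the opposite one (499, 441, 423 and 1122, 1253, 1276). No r without stage 17 was computed. The fish with low *myog* at stage 17, male replicate 1 (95.2 normalized counts) and female replicate 2 (173), were also the lowest of their groups in *myod1* (73.7 and 166). In these 2 fish *myf5* stood at 222 and 221 and *myf6* at 44.8 and 37.6, so *myf5* was the middle value of its group in both.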

How the data were processed

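The authors sequenced stranded poly(A) libraries from 36 whole fish on 2 pooled lanes. They trimmed reads with Trimmomatic 0.39, aligned them to GAculeatus_UGA_version5 with HISAT-3N and counted uniquely mapped reads with HTSeq 2.0.2 as reverse-stranded. The deposited count table holds raw read counts for 25258 genes. The deposited normalized table holds a signal per gene, which is each count divided by a DESeq2 1.44.0 size factor, for 24388 genes. All 36 columns of each table were matched to samples by library name, and every normalized column was checked to be the counts divided by a constant. Replicates were not pooled.

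Counts were tested with edgeR 4.0.16 in R 4.3.3 (limma 3.58.1): TMM normalization, filterByExpr over the 12 groups, and a quasi-likelihood fit of 1 factor of stage and sex over all 36 fish, as the study used a single fit. Benjamini-Hochberg adjustment ran over 22168 genes. Stage transitions average the sexes, sex differences are within a stage, and the interaction of stage and sex is an F test over all stages. In a self-test, changes of known size were put into simulated data that otherwise had no differences between stages. The share recovered at each size is not given, so nothing about the members is drawn from it. Alternatives were DESeq2 1.42.0 with a minimum of 10 reads, its size factors in edgeR, no filter, a replicate block, the compared stages alone and each fish left out. Contrasts within each sex alone were taken from the main fit of all 36 fish.

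The members and the gene lists were chosen with earlier results of these data known. All 4 members are named, and from each list at most 2 called genes with the largest rise and 2 with the largest fall per transition. Some genes are named outside this rule, for context. These are the relatives of *mef2b*, creatine kinase and calcium-handling genes, and the markers of other cell types. For each member the 3 genes of highest r are named, among genes whose symbol does not start with LOC. Chromosomes and neighbours came from the RefSeq gene table of fGasAcu3.hap1.1, which matched 20859 of the 25258 genes (82.6%). The planned comparison of levels between members per coding length was not made, since no coding lengths were used here. No sequences were used either.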

Additional observations from a re-analysis of the deposited data

How the results depend on the processing

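Under DESeq2, its size factors in edgeR and no filter on low counts, every comparison of the 4 members kept its direction where called, and its side of the threshold. Under the replicate block, which fits the replicate number as an added term, *myf5* became a call from stage 17 to stage 20 (-0.47, adjusted p = 0.0473), which made 1 member lower there in place of 0. Nothing in the labels ties equal numbers together, and same-numbered females and males of a stage deviated together only weakly (mean r = 0.0871, 7 of 18 pairs over 0.1), so the block was not taken as a pairing. It changed no other call of a member and no list count by more than 1.5 times. With DESeq2 size factors 2 counts of the myogenic lists moved by more than that, both from 0 to 4 dph. Upstream genes lower went from 2 to 1, and fusion and neuromuscular genes lower from 4 to 2. Among markers of other cell types, hepatocyte genes lower went from 2 to 1 at that step. Fitting only the stage compared ended the *myod1* call at stage 17 (0.98, adjusted p = 0.260), which left 0 members, and used 6 of the 36 fish. In females alone the *myog* rise to stage 23 was 0.44 (adjusted p = 0.104), and in males alone the *myod1* rise to 8 dph was 0.76 (adjusted p = 0.0514), which left 0 members called higher at each of these steps. Those 2 contrasts were taken from the fit of all 36 fish and compared 3 fish a side.

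With each fish left out in turn, the female excess of *myod1* ran from 0.68 to 1.24 at stage 17, from 0.77 to 0.91 at stage 20 and from 0.70 to 1.07 at 8 dph, and members called higher in females numbered 0 to 2, 0 to 1 and 0 to 1. The *myog* excess at stage 17 ran from 0.29 to 0.99. The *myf5* change from stage 17 to stage 20 ran from -0.60 to -0.23, with 0 to 1 members called lower: it was called without stage 20 female replicate 2 (adjusted p = 0.0499) or stage 20 male replicate 2 (adjusted p = 0.0274). The other stage transition calls of the members all held with any 1 fish left out. No called comparison changed sign under any alternative. Among comparisons that were not called, 10 had values on both sides of 0 when fish were left out in turn, such as the sex difference of *myf5* at stage 20 (-0.59 to 0.14) and the *myf6* change from stage 23 to hatching (-0.13 to 0.13). Precision is limited by 3 fish per group and by read numbers as low as 19 for *myf6* and 37 for *myf5*.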
